A study of Mus musculus with 2 samples.

Results

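BTG4 and 9 genes of the machinery that shortens poly(A) tails of maternal mRNA were described in oocytes, the female germ cells. The genes were chosen by name: BTG4, CNOT1, CNOT6, CNOT6L, CNOT7, CNOT8, PAN2, PAN3, ZFP36L2 and PABPN1L. All 10 were found among the 38817 genes of a table of expression values. The series, by its title, concerns spermidine, a natural polyamine, and the meiotic maturation of pig oocytes. Each of 2 labelled samples, a control and an SPE sample, had 1 library in the table, made from a pool of 100 oocytes. The SPE sample goes by SPD there and was read as treated with spermidine. The labels gave both samples as wild-type oocytes of the ICR mouse, whereas the table placed its genes on pig chromosomes, up to position 315308402. They are treated here as pig genes, and only the names and numbers of the columns tie them to the samples. Dose, culture time and age were not in the labels used here. The table also has the columns Con2 and SPD2, by their names a second control and a second spermidine library, which matched no labelled sample and were not used. With 1 library per group there was no replicate error and no test, so every difference below describes these 2 libraries.

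A growing oocyte stores mRNA for the period in which its own transcription is silent, and many of these transcripts lose their poly(A) tail and are degraded during maturation and after fertilization. BTG4 is an adaptor that brings the CCR4-NOT deadenylase complex to maternal mRNA, and mouse oocytes lacking it retain many transcripts that would otherwise be cleared. In CCR4-NOT, CNOT1 is the scaffold, CNOT7 and CNOT8 are the alternative CAF1-type nucleases, and CNOT6 and CNOT6L are the alternative CCR4-type nucleases. PAN2 and PAN3 form a second deadenylase, ZFP36L2 is a zinc finger protein that binds AU-rich mRNA and recruits CCR4-NOT, and PABPN1L is a poly(A)-binding protein of the mammalian oocyte and early embryo.

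The 10 genes differed widely in level and little between the libraries. BTG4 was by far the highest, CNOT7 was the highest deadenylase gene, and CNOT1, ZFP36L2 and PABPN1L were listed at less than 1 FPKM (fragments per kilobase of transcript, scaled to the mapped fragments of a library). Averaged over both libraries 7 of the 10 reached 1 FPKM, the minimum used for ratios. On the log2(FPKM + 1) scale none of these 7 was at or beyond 2-fold, where 4.99% of the 4391 genes over the same minimum were, so a count of 0 among 7 does not set them apart. Their log2 ratios of SPE to control ran from -0.26 to 0.23, a range that held 59.4% of those genes. The median was -0.05, beside -0.04 over the 4391 genes.

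**Figure D1:**
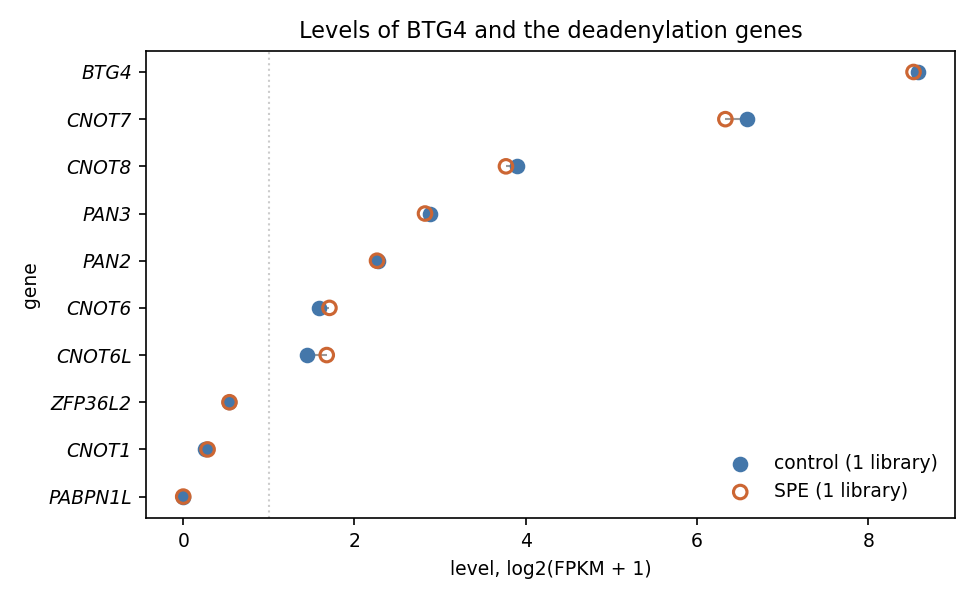
Level of each of the 10 genes as log2(FPKM + 1) on the horizontal axis, with the control library as filled points and the SPE library as open circles (1 library each, no error). The dotted line marks 1 FPKM. The genes keep one order in both libraries, with BTG4 at 382 and 369 FPKM highest and PABPN1L listed at 0 in both.

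BTG4, the adaptor, was at 382 FPKM in control and 369 FPKM in SPE oocytes. The values lay close together, with a log2 ratio of -0.05. The sign was not fixed: it was positive, at 0.0035, when each library was scaled to the sum of genes outside the mitochondrial chromosome and ribosomal RNA. For scale, the 45 other genes within 2-fold of the mean level of BTG4 had a median log2 ratio of -0.13 and a robust SD of 0.15. This spread is over genes and is not an error of BTG4. The gene lies on pig chromosome 9 (44183288 to 44194432), and no other gene of the table overlapped it.

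By listed FPKM, BTG4 stood among the highest genes of the table. It ranked 44 of 38817 genes in control and 43 in SPE oocytes. Without the mitochondrial chromosome and ribosomal RNA it ranked 29 and 28, and it made up 0.472% and 0.473% of the remaining summed FPKM. That remainder was 80978 of 249340 FPKM in control and 77892 of 251829 FPKM in SPE oocytes. Of the summed FPKM of the 10 genes BTG4 held 75.5% in control and 77.5% in SPE oocytes.

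The genes most like BTG4 over both libraries were taken as the 4 with an established symbol at the smallest distance in log2(FPKM + 1). F3, the gene of tissue factor, was nearest at a distance of 0.17, with 417 FPKM in control and 340 FPKM in SPE oocytes. CKS1B, a regulatory subunit of cyclin-dependent kinases, followed at 0.22 with 343 and 330 FPKM. DDA1, a component of a cullin ubiquitin ligase, lay at 0.27 with 443 and 412 FPKM, and SEPHS2, a selenophosphate synthetase, at 0.27 with 330 and 327 FPKM. With 2 libraries this likeness says only that the levels were close.

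The catalytic subunits of CCR4-NOT were unequal. CNOT7, a CAF1-type nuclease that BTG4 binds, was at 95.2 FPKM in control and 79.6 FPKM in SPE oocytes. Its log2 ratio of -0.26 was the most negative of the 7 and had the same sign under every scaling tried. Those scalings moved the median of the 4391 genes by only -0.02 to 0.05, so they could not have turned that sign. The 229 other genes within 2-fold of the mean level of CNOT7 had a median of -0.09 and a robust SD of 0.20. CNOT7 ranked 141 in control and 169 in SPE oocytes. In the table its locus on chromosome 17 (2493533 to 8237770) spans 5744 kb and is shared with 36 other genes. Those 36 summed to 73.4 and 74.0 FPKM, of which MTUS1, a microtubule-associated gene, held 39.0 and 36.5 FPKM. How reads were divided within such a merged locus is not given, and its part in the value of CNOT7 was not tested.

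CNOT8, the paralog of CNOT7, was at 13.9 FPKM in control and 12.6 FPKM in SPE oocytes, a log2 ratio of -0.13. It lies on chromosome 16 (74249702 to 74271923), with 1 provisional gene of the same locus listed at 0 in both libraries. CNOT7 was 6.83 times as high as CNOT8 in control and 6.30 times in SPE oocytes. Paralogs can share reads, and how such reads were counted is not given.

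The CCR4-type nucleases were much lower. CNOT6 was at 2.01 FPKM in control and 2.27 FPKM in SPE oocytes, a log2 ratio of 0.12. CNOT6L was at 1.73 and 2.196 FPKM, a ratio of 0.23 and the most positive of the 7. Both ratios were positive under every scaling tried, but the scalings moved ratios too little to turn either sign. The 2 ratios lay within the spread of genes of that level, whose robust SD was 0.31 for each gene. CNOT6 lies on chromosome 2 (79564705 to 79635537) and overlapped no other gene.

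The locus of CNOT6L on chromosome 8 (77392505 to 77499661) was shared with 2 other genes, 1 of them listed at 0 in both libraries. The other was a provisional gene, LOC100524449, at 4.87 FPKM in control and 3.70 FPKM in SPE oocytes. That gene was lower in the SPE library where CNOT6L was higher. Added together CNOT6L and LOC100524449 were at 6.60 and 5.90 FPKM, a log2 ratio of -0.14. The positive ratio of CNOT6L thus held for its own row and not for this sum. FPKM is scaled to the length of each gene, so the sum is not the signal of the locus.

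Summed by type, the CAF1-type genes were at 109 FPKM in control and 92.2 FPKM in SPE oocytes, and the CCR4-type genes at 3.74 and 4.46 FPKM. The CAF1-type sum was 29.2 times the CCR4-type sum in control and 20.7 times in SPE oocytes. This ratio does not depend on how the libraries are scaled, which holds by construction. It is taken without a pseudocount. On that scale log2 ratios of genes at the level of CNOT6 and CNOT6L had robust SDs of 0.46 and 0.47. CNOT7, which makes up most of the first sum, and CNOT6L, the smaller part of the second, lie at shared loci, and the ratio has no replicate check.

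**Figure D2:**
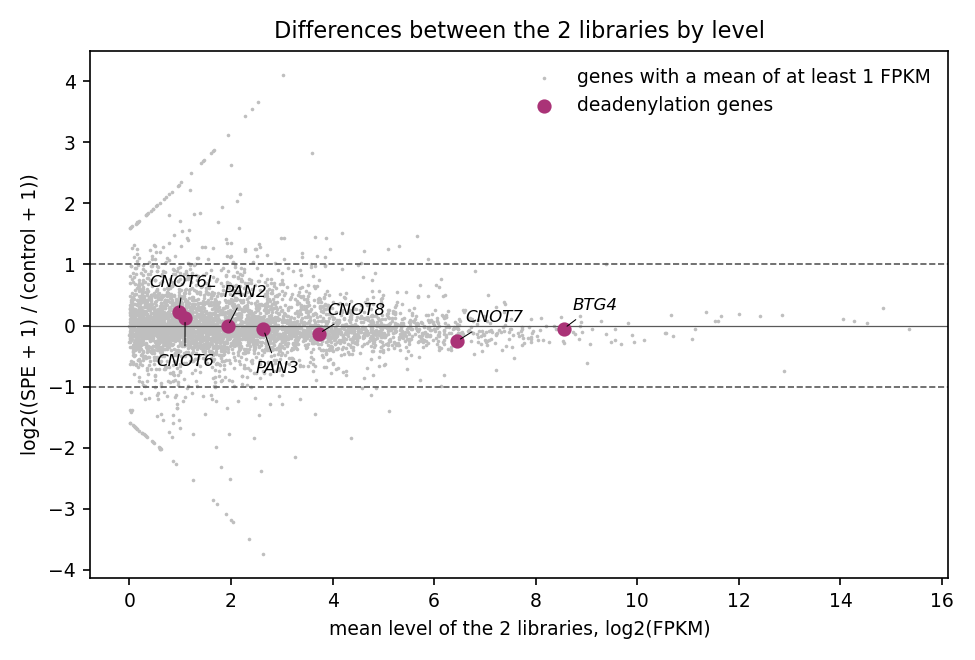
Log2((SPE + 1) / (control + 1)) against the mean level of both libraries, log2(FPKM), for the 4391 genes over the minimum of 1 FPKM (grey) and the 7 deadenylation genes among them (purple). Dashed lines mark 2-fold, and all 7 genes lie between them, from CNOT7 at -0.26 to CNOT6L at 0.23.

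The non-catalytic part of the complex spanned a wider range still. CNOT1, the scaffold, was listed at 0.189 FPKM in control and 0.218 FPKM in SPE oocytes. It was the lowest of the 9 members with a value above 0, although the complex is built on it. It lies on chromosome 6 (18405850 to 18474575) and overlapped no other gene. Of 6 further genes found on the list of other subunits and partners, CNOT11, a subunit of the amino-terminal module, was highest at 23.5 and 21.2 FPKM. CNOT3, of the NOT module, was at 6.37 and 4.61 FPKM, and the conserved subunit RQCD1, also called CNOT9, at 4.31 and 4.69 FPKM. CNOT2, the partner of CNOT3, was at 0.400 and 0.324 FPKM. CNOT10, the partner of CNOT11, was listed at 0 in control and 0.028 FPKM in SPE oocytes, over a model of 13.7 kb on an unplaced scaffold.

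Subunits that act together in 1 complex were therefore listed at very different levels, and in both libraries alike. A gene that cells use generally also appeared at 0 in 1 library: the ribosomal protein gene RPL29 was listed at 0 for control oocytes but at 2.77 FPKM for SPE oocytes. Values at or near 0 are given here as listed, since they can be failed estimates. Of the 3 further genes over the minimum, CNOT3 had a log2 ratio of -0.39, CNOT11 of -0.15 and RQCD1 of 0.10. None was at or beyond 2-fold.

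**Figure D3:**
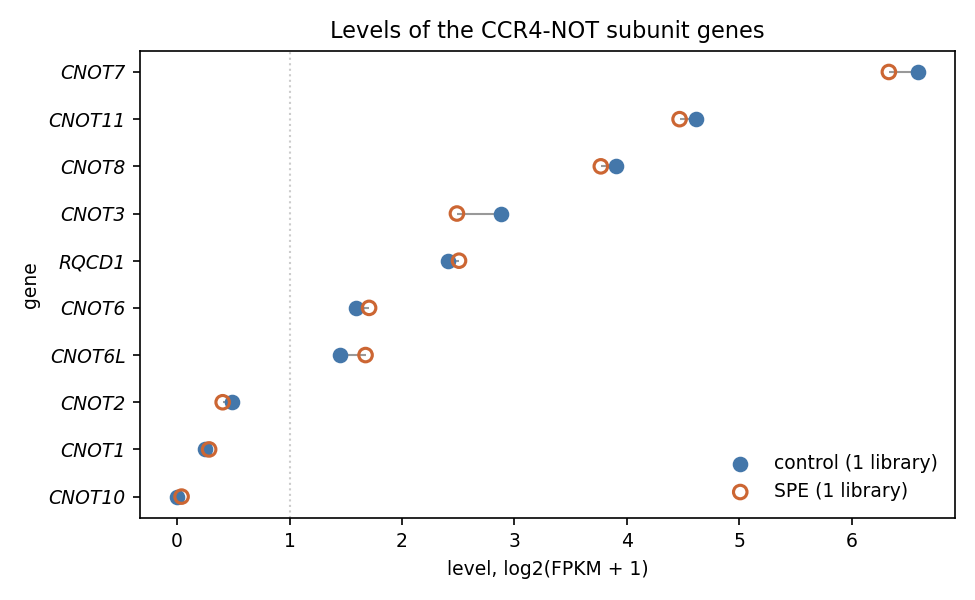
Levels of the 10 CCR4-NOT subunit genes found in the table, as log2(FPKM + 1), in the control (filled) and SPE (open) library, with the dotted line at 1 FPKM. CNOT7 at 95.2 and 79.6 FPKM is highest, whereas CNOT2, CNOT1 and CNOT10 lie below 1 FPKM in both libraries.

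The second deadenylase was close to equal in both libraries. PAN3, the subunit that binds RNA and recruits PAN2, was at 6.38 FPKM in control and 6.08 FPKM in SPE oocytes, a log2 ratio of -0.06. PAN2, the nuclease, was at 3.84 and 3.80 FPKM, a ratio of -0.01 that turned positive (0.02 and 0.03) when the ratios were centred on their median or scaled outside mitochondrial and ribosomal RNA. PAN3 was 1.66 times as high as PAN2 in control and 1.60 times in SPE oocytes. PAN2 lies on chromosome 5 (23190220 to 23204911) and overlapped no other gene. PAN3, on chromosome 11 (5165008 to 5301062), shared its locus with a provisional gene, LOC100515792, at 15.4 and 15.1 FPKM.

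ZFP36L2 and PABPN1L were listed under 1 FPKM. ZFP36L2, the AU-rich element binding protein, was at 0.443 FPKM in control and 0.454 FPKM in SPE oocytes. It lies on chromosome 3 (103259048 to 103263356), and with a mean under 1 FPKM it entered no count. PABPN1L, on chromosome 6 (1049074 to 1054344), was listed at 0 in both libraries, which can be a failed estimate, so no ratio can be given. Neither gene overlapped another gene of the table. The related ZFP36L1 was at 1.18 and 0.962 FPKM, and ZFP36 was listed at 0 in both.

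In order of level the genes ran BTG4, CNOT7, CNOT8, PAN3, PAN2, CNOT6, CNOT6L, ZFP36L2, CNOT1 and PABPN1L, and all 10 held the same place in both libraries. BTG4 was 4.01 times as high as CNOT7 in control and 4.63 times in SPE oocytes. The smallest gap between neighbours was that of CNOT6 over CNOT6L, 1.16 times in control and 1.03 times in SPE oocytes. PAN2 was 1.91 and 1.68 times as high as CNOT6, CNOT8 was 2.19 and 2.08 times as high as PAN3, and ZFP36L2 was 2.35 and 2.08 times as high as CNOT1. Whether any of these gaps exceeds the error of the levels could not be judged with 1 library per group.

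In direction, 5 of the 7 genes were lower in the SPE library by any amount (BTG4, CNOT7, CNOT8, PAN3 and PAN2) and 2 were higher (CNOT6 and CNOT6L), beside 55.4% lower and 44.6% higher over the 4391 genes. This split depended on the scaling: 4 were lower with the ratios centred on their median, and 3 with the libraries scaled outside mitochondrial and ribosomal RNA.

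Among the other genes of deadenylation and mRNA decay, 8 lists held 82 genes found in the table, of which 33 reached the minimum mean of 1 FPKM. None of the 33 was at or beyond 2-fold on the log2(FPKM + 1) scale, beside 4.99% of the 4391 genes, a share so low that a count of 0 among 33 says little about these genes. Their median log2 ratio was -0.06, with 20 lower and 13 higher in the SPE library, a split that came to 17 and 16 when the ratios were centred or the libraries scaled outside mitochondrial and ribosomal RNA. The 49 genes under the minimum are not covered by these counts.

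BTG4 also had the highest listed level of the BTG and TOB family genes found. Of 4 other BTG and TOB adaptors found, BTG1 was at 38.9 FPKM in control and 36.0 FPKM in SPE oocytes, and TOB1 at 14.2 and 13.9 FPKM. BTG4 was 9.83 and 10.2 times as high as BTG1. BTG2 was listed at 0 and 0.199 FPKM, and BTG3 at 0.277 and 0 FPKM.

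Of 5 genes on the list of other deadenylases 3 were over the minimum, with a median of -0.16. Whether each gene on it acts on poly(A) tails was not tested here. NOCT, the gene of nocturnin, was highest at 13.4 FPKM in control and 14.1 FPKM in SPE oocytes, with the most positive ratio of the list at 0.07. ANGEL1 had the most negative at -0.38, from 1.46 to 0.894 FPKM, and reached the minimum through the control library alone. PARN, the poly(A)-specific ribonuclease, was at 0.263 and 0.210 FPKM.

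Of 7 poly(A)-binding proteins and their regulators 4 were over the minimum, with a median of 0.04. PABPC4, a cytoplasmic poly(A)-binding protein, was highest at 14.2 and 13.2 FPKM. PABPC1L, the embryonic poly(A)-binding protein of oocytes, was at 0.830 and 1.22 FPKM (log2 ratio 0.28), and PABPN1, the nuclear relative of PABPN1L, at 4.51 and 3.53 FPKM (-0.28). These were the extremes of the list on either side, and PABPC1L reached the minimum through the SPE library alone.

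Of 17 other RNA-binding recruiters found, 9 were over the minimum, with 5 lower, 4 higher and a median of -0.06. SAMD4B, a relative of the fly translational repressor Smaug, was at 10.3 and 9.15 FPKM, and KHSRP, an AU-rich element binding protein, at 9.35 and 10.5 FPKM. KHSRP and SAMD4B had nearly equal means, and KHSRP was the highest. NANOS1, a partner of Pumilio proteins, had the most positive ratio, at 3.60 FPKM in control and 6.21 FPKM in SPE oocytes (0.65). NANOS2 had the most negative, at 1.66 and 0.835 FPKM (-0.54), over a locus of 0.417 kb, and reached the minimum through the control library alone. YTHDF2, the m6A reader that recruits CCR4-NOT, was at 2.16 and 3.08 FPKM (0.37).

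Downstream of deadenylation, 8 of 18 genes found for decapping and decay from the 5′ end were over the minimum, with a median of 0.02. EIF4ENIF1, the translation repressor 4E-T, was highest at 20.0 FPKM in control and 19.7 FPKM in SPE oocytes. LSM2, a subunit of the Lsm ring that binds deadenylated mRNA, had the most positive ratio of the list, at 1.80 and 4.28 FPKM (0.91). It is 2.37-fold without a pseudocount, and its gene model is 0.805 kb long on an unplaced scaffold. LSM5 had the most negative ratio, at 7.21 and 5.80 FPKM (-0.27), so the Lsm genes did not share a direction. The decapping enzyme DCP2 was at 5.25 and 4.90 FPKM.

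Of 18 genes for decay from the 3′ end and uridylation only EXOSC3, an exosome subunit, was over the minimum, at 1.61 and 0.934 FPKM (-0.43). EXOSC3 reached the minimum through the control library alone. The terminal uridylyltransferases that mark short-tailed maternal mRNA in mouse oocytes, ZCCHC11 (also TUT4) and ZCCHC6 (also TUT7), were at 0.044 and 0.058 FPKM and at 0.061 and 0.060 FPKM.

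**Figure D4:**
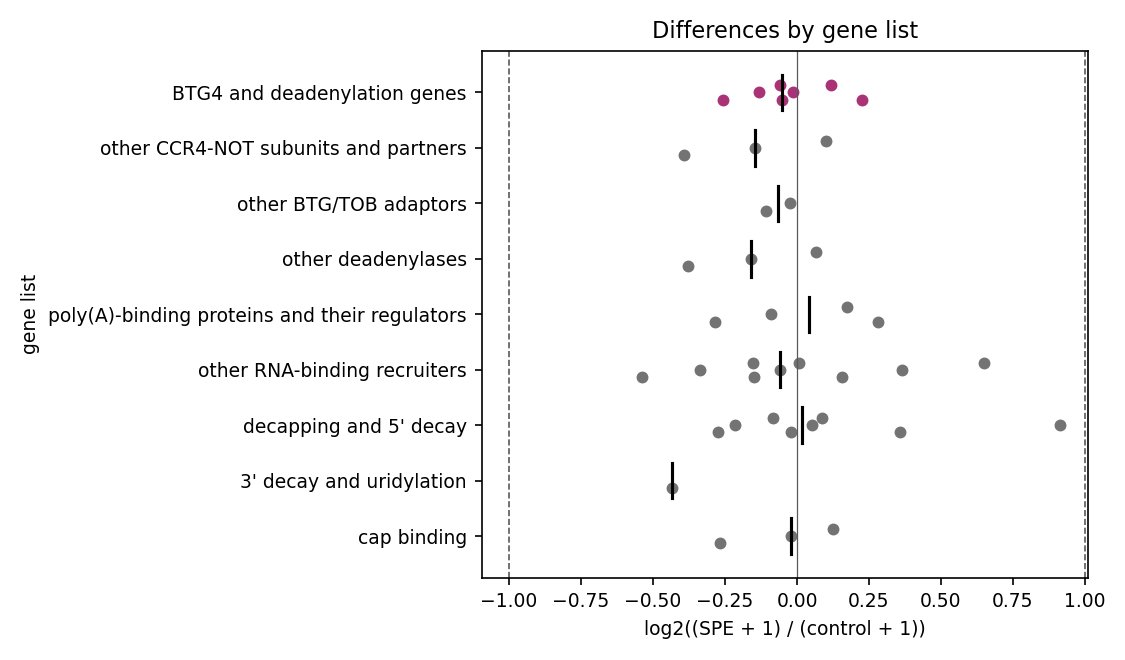
Log2((SPE + 1) / (control + 1)) of the genes over the minimum of 1 FPKM in each list, 1 point per gene, with the list median as a black bar and 2-fold as dashed lines. The 7 deadenylation genes (purple) and the 33 others lie inside 2-fold, and LSM2 at 0.91 is nearest to it.

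Most markers of the oocyte were present. All 13 were found and 9 were over the minimum, while NLRP5, FIGLA, NOBOX and DDX4 were under 1 FPKM in both libraries. OOSP2, a secreted oocyte protein gene, was highest at 904 and 730 FPKM, with the most negative log2 ratio of the 9 (-0.31). GDF9 had the most positive, at 78.1 and 145 FPKM (0.89). By direction, 6 of the 9 oocyte markers were higher in SPE oocytes and 3 were lower, none by 2-fold or more. Their median log2 ratio was 0.02. The 20 granulosa and cumulus markers found summed to 34.1 FPKM in control and 16.0 FPKM in SPE oocytes, with LHCGR, TNFAIP6, AMH, NR5A1, AREG and EREG at 0 in both. Of these 20 genes 5 were over the minimum, and all 5 were lower in the SPE library, 2 of them by at least 2-fold. Over the 4391 genes 55.4% were lower and 4.99% were at or beyond 2-fold in either direction. Of the 2, HSD3B1, at 1.90 and 0.111 FPKM, reached the minimum only through the control library, which favours a large ratio. By its mean the highest was INHBA, an inhibin subunit gene, at 9.87 and 5.55 FPKM. INHBB, another inhibin subunit gene, was higher in the control and held much of the difference between the sums, at 10.8 and 1.28 FPKM (log2 ratio -2.38) over a model of 0.349 kb on an unplaced scaffold. The 9 theca, stroma and endothelium markers summed to 0.378 and 0.431 FPKM (highest PECAM1), and the 9 blood and immune markers to 0.410 and 0.024 FPKM (highest CD68), with 6 of 9 at 0 in both libraries in either list. The granulosa sum was lower in the SPE library, and its part in the values above was not tested. In pooled oocytes, fewer cells of a type and less RNA per cell cannot be told apart.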

How the data were processed

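RNA of pools of 100 oocytes was sequenced on an Illumina platform, per the labels' protocols. The deposited values are FPKM, as the authors named the file. The submitters' processing notes list Bowtie2 2.2.5, RSEM and the build mm9, whereas the loci lie on pig chromosomes, whose build is not stated there. Starts were raised by 1, on the assumption that loci count from 0, and chromosome numbers follow the order of the pig chromosome accessions. Control and SPE were matched to columns by name and number, and 2 further columns, Con2 and SPD2, matched no sample and were not used. FPKM sums were 249340 and 251829; the table has no read counts, so the depth and the precision per gene are unknown. Ratios of SPE to control in 5128 low genes (0.005 to 0.3 FPKM in each library) peaked at 1.026 in steps of 0.001, where 188 genes lay, which does not settle the relative depth.

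Differences are given as log2((SPE + 1) / (control + 1)) for genes whose mean reached 1 FPKM. The pseudocount of 1 FPKM understates differences of low genes. Because the minimum applies to the mean, a gene near it can pass through 1 library alone, which favours a large ratio. Robust SDs are scaled median absolute deviations over genes within 2-fold of a gene's mean. The text names all members, the highest and extreme genes of each pathway list, the highest of each marker list and the 4 genes nearest to BTG4. Other genes named were chosen after their values were seen. The members and lists were chosen with earlier results of these data known. The calculation was run on simulated data with changes larger than 2-fold, so that run does not bear on smaller differences. Python 3.11.15, pandas 2.3.3, NumPy 2.4.6 and matplotlib 3.10.9 were used.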

Additional observations from a re-analysis of the deposited data

How the results depend on the processing

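No paired analysis was possible because each group had 1 matched library, and for the same reason no replicate could be left out. The count of deadenylation genes at or beyond 2-fold was 0 under all 9 alternatives: pseudocounts of 0.1 and 5 FPKM, scaling to TPM, centring on the median, scaling outside mitochondrial and ribosomal RNA, no filter, a minimum of 10 FPKM, a 1.5-fold rule (13.2% of the 4391 genes were called by it), and genes at unshared loci. The last was chosen after seeing the data. It left 3 of the deadenylation genes, as did the minimum of 10 FPKM, so a count of 0 says little there. The other counts of 0 add little too. Ratios of the deadenylation genes over the minimum stayed at 0.33 or less in size, with CNOT6L highest at a pseudocount of 0.1 FPKM. The median log2 ratio of the deadenylation genes over the minimum ran from -0.07 to 0.0035, turning positive under scaling outside mitochondrial and ribosomal RNA, and that of the pathway genes from -0.10 to -0.01. The count of pathway genes at or beyond 2-fold was 0 as reported, 1 with a pseudocount of 0.1 FPKM and 1 on the TPM scale, both times LSM2 (1.20 and 1.13). Over all genes the count beyond 2-fold was 219 as reported, 406 with a pseudocount of 0.1 FPKM, 38 with 5 FPKM and 369 on the TPM scale, where values are about 4 times larger beside the same pseudocount. All alternatives reuse the same 2 libraries, so none of this measures replicate error.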

Other observations

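The cap lies at the other end of the mRNA from the poly(A) tail. On the list for cap binding EIF4G2 and EIF4E1B had high values, whereas the next gene, EIF4E3, had a mean of 1.17 FPKM. EIF4G2, a scaffold of translation initiation that lacks the binding site for EIF4E, was at 143 FPKM in control and 118 FPKM in SPE oocytes, with the most negative log2 ratio of its list at -0.27. EIF4E1B, the cap-binding protein of oocytes, was at 87.6 and 86.4 FPKM. The general EIF4E was listed at 0.208 and 0.628 FPKM, and EIF4E3 had the most positive ratio, at 1.08 and 1.26 FPKM (0.13). Of 7 genes found 3 were over the minimum of 1 FPKM, with a median of -0.02, and none was at or beyond 2-fold. EIF4E and EIF4E1B were chosen for naming after their values were seen.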
